A study of Rattus norvegicus with 12 samples.

Results

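Followed here through both comparisons were 10 genes, the chemokines Cxcl9, Cxcl10, Cxcl11, Cxcl13, Ccl21, Ccl19 and Ccl5 and the receptors Cxcr3, Cxcr5 and Ccr7. They were taken by name, as ligands and receptors known for the migration of T cells, B cells and dendritic cells, and all 10 have a row in both deposited tables, among 16481 genes with a symbol of their own after SNL and 16464 for the shRNA groups. RNA came from the L5 dorsal root ganglion (DRG), the sensory ganglion of the fifth lumbar spinal nerve, of Sprague Dawley rats. The sample labels call them male, while the study's methods name male and female rats of 5 to 6 weeks. SNL ganglia came from the side on which the L5 spinal nerve had been ligated, and Control ganglia from the contralateral side, which was left intact. The Control group is therefore not a naive animal. In the other pair of groups, all rats had SNL and had received an adeno-associated virus (AAV) vector of serotype 6 into the L5 DRG 7 days before. The vector encoded an shRNA against the long noncoding RNA Neat1 in the group SNL+Neat1 shRNA and a scrambled shRNA in the group SNL+control shRNA, and the study describes the vector as a means of reaching DRG neurons. RNA was taken 14 days after SNL, from 3 libraries in each of the 4 groups.

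Chemokines are small secreted proteins that guide leukocytes through receptors coupled to G proteins. CXCL9, CXCL10 and CXCL11 share the receptor CXCR3, which is carried by activated T cells and natural killer (NK) cells, and their genes are classic targets of interferon gamma. CXCL13 draws B cells and follicular helper T cells through CXCR5. CCL19 and CCL21 guide naive T cells and mature dendritic cells through CCR7, with CCL21 made mainly by lymphatic endothelium and lymphoid stroma. CCL5 is made largely by activated T cells and NK cells and attracts T cells and myeloid cells. In the injured DRG, macrophages and T cells are known to accumulate around sensory neurons, and chemokines of this kind have been studied as signals between neurons, glia and leukocytes.

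Each deposited table gives 1 FPKM value per group, that is 1 value over its 3 libraries, so no difference below has a replicate check, an SD or a test, and a value carried by 1 library cannot be told apart from one shared by all 3. FPKM are fragments per kilobase of transcript, scaled to the mapped fragments of a library, a scale per length on which levels of different genes can be set side by side. The depth of the libraries is unknown. In rows of olfactory receptors, the smallest products of FPKM and row length above 0 lay between 0.0152 and 0.0206 FPKM x kb over the 4 groups, so values of a few hundredths of an FPKM rest on very few fragments. A gene is called higher here when its ratio was above 1.5 and lower when it was below 0.67, provided the mean of its 2 group values was at least 1 FPKM. The ganglia carried their tissue's markers in every group. Peripherin (Prph), a filament of sensory neurons, was at 1734 FPKM in SNL and 1643 FPKM in Control, and at 1705 FPKM in the group labelled Neat1 shRNA and 1526 FPKM in SNL+control shRNA. The unnamed assembled row at the Neat1 locus had 294 FPKM in SNL and 141 FPKM in Control, a ratio of 2.09. In the shRNA table it had 374 FPKM in the group labelled Neat1 shRNA and 355 FPKM in SNL+control shRNA, a ratio of 1.05. In these values the targeted RNA was thus no lower where its shRNA is labelled, and in these tables every direction given below for that group is drawn on its label.

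The CXCR3 ligands are neighbours in the rat genome, and the CCR7 ligands lie close together. In the RefSeq table of the assembly GRCr8, Cxcl11, Cxcl10 and Cxcl9 follow each other directly on chromosome 14. In the rn5 coordinates of the SNL table, Cxcl9 lay at chr14:17144965-17152421, Cxcl10 and Cxcl11 shared 1 assembled locus at chr14:17059129-17141523, and Cxcl13 lay at chr14:15193474-15198531. On chromosome 5 of rn5, Ccl19 (chr5:62705390-62707413) and Ccl21 (chr5:62722613-62723718) lay 15.2 kb apart, and in GRCr8 the RefSeq table places 1 gene, LOC689481, between them. RefSeq gives a promoter window, 250 bases before to 50 bases after the start, for 7 of the 10 members (Cxcl9, Cxcl10, Cxcl11, Cxcl13, Cxcr3, Ccl19 and Ccl21). Each window was searched on both strands for GAAANNGAA, the letters of an interferon response type element, for TTCNNNGAA, the letters of a GAS element of interferon gamma responses, and for the NF-kB consensus. The windows of 4 members, GRCr8, are shown up to the base before the start, with every match in capitals. Cxcl10 and Cxcl11 stand for the CXCR3 ligands, and Ccl19 and Ccl21 for a closely linked pair whose values diverged in the shRNA table. Cxcl10 was read from chr14:15988816-15989065 and Cxcl11 from chr14:15973478-15973727, both on the plus strand. Ccl19 was read from chr5:61761165-61761414 and Ccl21 from chr5:61777516-61777765, both on the minus strand.
Cxcl10: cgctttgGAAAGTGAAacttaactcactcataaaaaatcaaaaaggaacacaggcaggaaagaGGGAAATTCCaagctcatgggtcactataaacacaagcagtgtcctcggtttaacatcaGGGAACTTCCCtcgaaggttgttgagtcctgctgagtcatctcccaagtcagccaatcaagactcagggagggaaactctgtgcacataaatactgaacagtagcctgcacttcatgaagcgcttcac
Cxcl11: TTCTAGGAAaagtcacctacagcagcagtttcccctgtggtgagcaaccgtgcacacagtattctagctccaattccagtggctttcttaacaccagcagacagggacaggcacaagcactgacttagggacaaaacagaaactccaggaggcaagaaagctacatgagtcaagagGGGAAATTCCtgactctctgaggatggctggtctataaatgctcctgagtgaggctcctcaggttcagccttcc
Ccl19: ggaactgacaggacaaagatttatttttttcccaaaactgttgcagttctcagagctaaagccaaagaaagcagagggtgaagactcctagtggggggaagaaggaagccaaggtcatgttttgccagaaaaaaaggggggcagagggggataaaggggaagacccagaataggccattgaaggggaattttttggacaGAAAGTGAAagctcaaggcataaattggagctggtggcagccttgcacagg
Ccl21: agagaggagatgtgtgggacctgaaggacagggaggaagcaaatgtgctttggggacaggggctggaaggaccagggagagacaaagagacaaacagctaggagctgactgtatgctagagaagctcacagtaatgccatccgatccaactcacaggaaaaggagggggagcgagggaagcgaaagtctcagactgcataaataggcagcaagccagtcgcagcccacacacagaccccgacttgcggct

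In the Cxcl10 window, GAAANNGAA matched at bases -243 to -235 from the start, and the NF-kB consensus at -187 to -178 and in 2 overlapping matches between -128 and -118. In the Cxcl11 window, TTCNNNGAA matched at -250 to -242 and the NF-kB consensus at -74 to -65. The Ccl19 window held GAAANNGAA at -51 to -43. Cxcl9 held TTCNNNGAA after its start, at bases 32 to 40, and none of these letters were found in the windows of Cxcl13, Cxcr3 and Ccl21. GAAANNGAA was in 2 of the 7 members' windows and in 9.71% of 33469 windows of that length, TTCNNNGAA in 2 of 7 and 8.87%, and the NF-kB consensus in 2 of 7 and 7.51%. These matches describe the letters only, and no binding was measured in these samples.

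After SNL, every member had a value above its Control value, but most of them stayed at low levels. Cxcl9 was the most abundant member, with 33.0 FPKM in SNL and 6.22 FPKM in Control. In SNL the other members lay between 0.717 FPKM (Cxcl11) and 6.09 FPKM (Cxcl10). Of the 10 members, 6 passed the filter on mean FPKM, and 4 of these (Cxcl9, Cxcl10, Cxcl13 and Ccl21) were called higher, none lower, while Ccl19 and Ccl5 stayed within the limits. Over all 10815 genes that passed the filter, 18.3% were called higher and 16.2% lower. The median log2 ratio over all 10 members was 1.80, beside 0.0011 over all genes that passed.

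**Figure D1:**
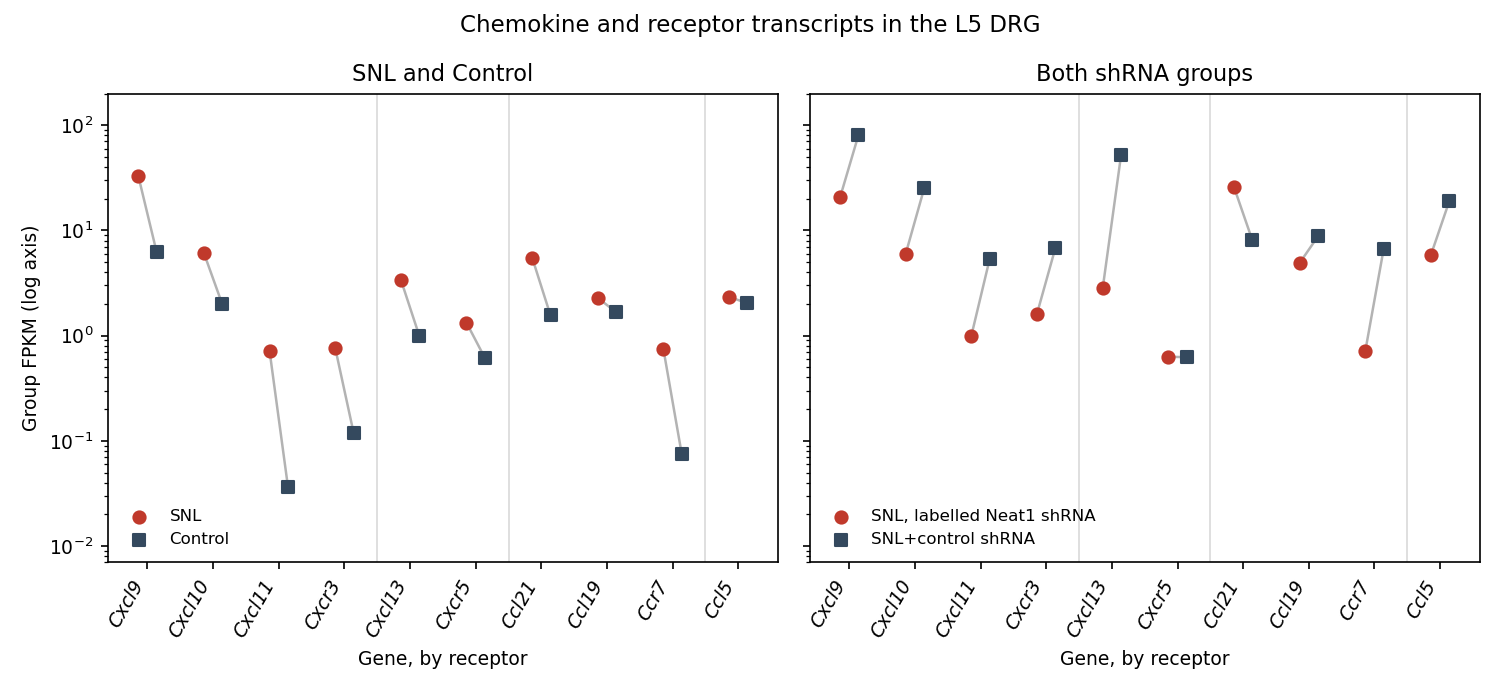
FPKM of each member (log axis, 1 value per group over 3 libraries), with SNL (circles) left of Control (squares) in the left panel, and the group labelled Neat1 shRNA (circles) left of SNL+control shRNA (squares) in the right panel. All 10 circles stand above their squares on the left. On the right 8 stand below, and Ccl21 stands above (25.8 against 8.06 FPKM). Cxcr5, drawn by its row with the higher mean, is level there, while its other row had 0.344 against 0.791 FPKM.

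The 3 CXCR3 ligands and their receptor were all higher after SNL, in steps of different size. Cxcl9 was 5.31-fold higher (log2 2.41) and ranked 212 from the top of the 10815 genes. Cxcl10 had 6.09 FPKM in SNL and 1.99 FPKM in Control, a ratio of 3.07. Cxcl11 had 0.717 FPKM in SNL and 0.0368 FPKM in Control. Its ratio of 19.5 is the highest of any member, but the Control value lies in the range of very few fragments and the gene did not pass the filter. Cxcr3 had 0.764 FPKM in SNL and 0.120 FPKM in Control, and with a ratio of 6.39 it too was under the filter. Together the 3 ligands summed to 39.8 FPKM in SNL and 8.24 FPKM in Control, a ratio of 4.84. Cxcl9 supplied 82.9% of that sum in SNL and 75.5% in Control, so that the ligand pool was made of Cxcl9 transcripts for the most part on both sides.

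The B cell attractant Cxcl13 had 3.40 FPKM in SNL and 1.0005 FPKM in Control, a ratio of 3.40. Its receptor Cxcr5 has 2 rows over the same locus in each table. The row with the higher mean gave 1.33 FPKM in SNL and 0.613 FPKM in Control, and its mean of 0.970 FPKM lay just under the filter. The other row gave 0.334 FPKM in SNL and 0.187 FPKM in Control. Both rows were thus higher in SNL, with ratios of 2.16 and 1.79.

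Of the CCR7 ligands, Ccl21 and Ccl19 differed in size of change. Ccl21 had 5.52 FPKM in SNL and 1.56 FPKM in Control, a ratio of 3.55. Ccl19 had 2.29 FPKM in SNL and 1.66 FPKM in Control, and its ratio of 1.38 was within the limits. Ccl21 made up 70.7% of the sum of both ligands in SNL and 48.3% in Control. Their receptor Ccr7 had 0.743 FPKM in SNL and 0.0743 FPKM in Control, a ratio of 9.99 from a Control value under 0.1 FPKM, and did not pass the filter. Ccl5 had nearly the same level on both sides, with 2.33 FPKM in SNL and 2.03 FPKM in Control.

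Markers of cells that can carry these receptors were read from lists of each cell type. Of 12 T cell markers, 5 passed the filter and all 5 were called higher, beside 18.3% of all genes that passed. Except for Cd4, these markers were under 1 FPKM in Control and passed only through SNL, so the filter fixed their direction. The CD3 chain Cd3g had 2.23 FPKM in SNL and 0.372 FPKM in Control, and the list summed to 41.1 FPKM in SNL and 9.55 FPKM in Control, of which Cd4, which rat macrophages also express, made up 27.5 and 6.48 FPKM. Of 8 NK and cytotoxic cell markers, 2 passed the filter and both were called higher. Both were likewise under 1 FPKM in Control and passed only through SNL. The list summed to 14.3 FPKM in SNL and 1.16 FPKM in Control, with granzyme B (Gzmb) at 10.8 and 0.337 FPKM and Gzma listed at 0 in both groups. Of 9 B and plasma cell markers found, none passed the filter. They summed to 2.54 FPKM in SNL and 0.423 FPKM in Control. Most of the SNL sum was Pax5 (1.40 FPKM), the defining markers Ms4a1 and Cd79b were at or under 0.0902 FPKM in SNL, and both were listed at 0 in Control. All 8 macrophage markers were called higher, and C1qb, a complement subunit, had 93.9 FPKM in SNL and 12.3 FPKM in Control. Of these markers, Itgam, Cd14 and Cd163 were under 1 FPKM in Control and passed only through SNL, so the filter fixed their direction. Of 8 dendritic cell markers, 5 passed, 2 were called higher and 1 lower. Fscn1, an actin-bundling protein of mature dendritic cells and other cells, had 88.7 FPKM in SNL and 20.8 FPKM in Control, and the growth factor receptor Flt3 was the lower one, with 3.06 and 8.20 FPKM. Of the 4 lymphatic endothelium markers that passed, 2 were called higher, with the VEGF receptor Flt4 at 4.46 FPKM in SNL and 0.538 FPKM in Control, while Lyve1 had 1.76 FPKM in both groups. Flt4 likewise passed only through SNL, so its direction was fixed by the filter. Tissue markers went the other way, with 6 of 8 sensory neuron markers and 3 of 7 markers of satellite glia and Schwann cells called lower and 1 of the glial ones higher. The part of these cells in the members' values was not tested. In bulk tissue, more cells of a type and more RNA per cell cannot be told apart.

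The pathway that is known to drive the CXCR3 ligands was read from a list of 18 interferon gamma genes, of which 17 were found and 15 passed the filter. After SNL, 12 of the 15 were called higher and none lower, with a median log2 ratio of 1.34. Over all genes that passed, 18.3% were called higher and 16.2% lower. The transactivator of MHC class II genes, Ciita, had 4.89 FPKM in SNL and 0.525 FPKM in Control, and the transcription factor Irf8 had 11.2 and 1.89 FPKM. Being under 1 FPKM in Control, Ciita passed only through SNL, so the filter fixed its direction. Gbp2, an interferon-induced GTPase, had 38.2 FPKM in SNL and 9.22 FPKM in Control. Ifng itself was listed at 0 in both SNL and Control. Of 16 genes found for lymphotoxin signalling and lymphoid tissue organisation, 11 passed the filter, 6 of them were called higher and 1 lower. Among those called higher, Tnfrsf14 and Tnfsf13b were likewise under 1 FPKM in Control and passed only through SNL. Tnfrsf14, the receptor of LIGHT, had 2.18 FPKM in SNL and 0.274 FPKM in Control, while the addressin Madcam1 was the lower one, with 1.39 FPKM in SNL and 2.73 FPKM in Control.

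Between the shRNA groups most members were several-fold lower in the group labelled Neat1 shRNA, while Ccl21 was higher. Of the 10 members, 9 passed the filter and 8 of these were called lower, 1 higher. Over all 10962 genes that passed, 3.59% were called lower and 1.22% higher. The median log2 ratio over all 10 members was -2.01, beside -0.0037 over all genes that passed. The 9 members that passed divided by size: Cxcl13 and Ccr7 with the largest differences, the CXCR3 ligands, Cxcr3 and Ccl5 with ratios between 0.186 and 0.308, Ccl19 with a small one, and Ccl21 in the opposite direction.

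Cxcl13 had 2.81 FPKM in the group labelled Neat1 shRNA, against 51.9 FPKM in SNL+control shRNA. It was 18.4-fold lower (log2 -4.20), and ranked 4 from the lowest ratio of 10962 genes. Its receptor Cxcr5 did not pass the filter, and its 2 rows went apart. The row with the higher mean had 0.630 FPKM in the group labelled Neat1 shRNA and 0.624 FPKM in SNL+control shRNA, whereas the other had 0.344 and 0.791 FPKM, a log2 ratio of -1.20. No direction can be given for Cxcr5 from these rows.

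The CXCR3 set was lower as a whole and by similar factors. Cxcl9 had 20.7 FPKM in the group labelled Neat1 shRNA and 80.7 FPKM in SNL+control shRNA, and was 3.91-fold lower. Cxcl10 had 6.02 and 25.0 FPKM in the same groups, 4.16-fold lower. Cxcl11, the least abundant ligand, had 1.002 FPKM in the group labelled Neat1 shRNA and 5.39 FPKM in SNL+control shRNA, 5.38-fold lower. Cxcr3 had 1.62 FPKM in the group labelled Neat1 shRNA and 6.83 FPKM in SNL+control shRNA, 4.21-fold lower. The 3 ligands and the receptor ranked between 19 and 39 from the lowest ratio. The ligand sum was 27.7 FPKM in the group labelled Neat1 shRNA and 111 FPKM in SNL+control shRNA, a ratio of 0.249, and the share of Cxcl9 in it was 74.6% and 72.6%. The pool was therefore smaller with nearly the same make-up.

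The CCR7 set did not move together. Ccr7 had 0.711 FPKM in the group labelled Neat1 shRNA and 6.65 FPKM in SNL+control shRNA, was 9.35-fold lower and ranked 8 from the lowest ratio. Being under 1 FPKM in the first group, Ccr7 passed the filter only through SNL+control shRNA. Ccl19 had 4.90 and 8.79 FPKM in the same groups, a ratio of 0.558. Ccl21 was the single member called higher, with 25.8 FPKM in the group labelled Neat1 shRNA and 8.06 FPKM in SNL+control shRNA, a ratio of 3.20 that ranked 5 from the highest. It then made up 84.1% of the sum of both ligands, against 47.9% in SNL+control shRNA. The 2 ligand genes, whose promoter windows are printed above, thus went in opposite directions. Lymphatic endothelium markers, set beside Ccl21 because those cells are a known source of it, were all within the limits where they passed the filter (4 of 5 found), with Lyve1 at 3.002 FPKM in the group labelled Neat1 shRNA and 2.62 FPKM in SNL+control shRNA. Flt4 had 5.04 and 3.55 FPKM in the same groups, a ratio of 1.42. Pdpn had 54.7 and 56.2 FPKM, and Reln 30.6 and 28.6 FPKM. Prox1, the defining transcription factor of lymphatic endothelium, was under the filter at 0.379 and 0.134 FPKM in the same groups, a ratio of 2.82.

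Ccl5 had 5.84 FPKM in the group labelled Neat1 shRNA and 18.9 FPKM in SNL+control shRNA, 3.24-fold lower. Of its receptors, Ccr1 and Ccr3 were under the filter. The scavenging receptor Ackr3 had 14.8 FPKM in the group labelled Neat1 shRNA and 13.4 FPKM in SNL+control shRNA and was within the limits.

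**Figure D2:**
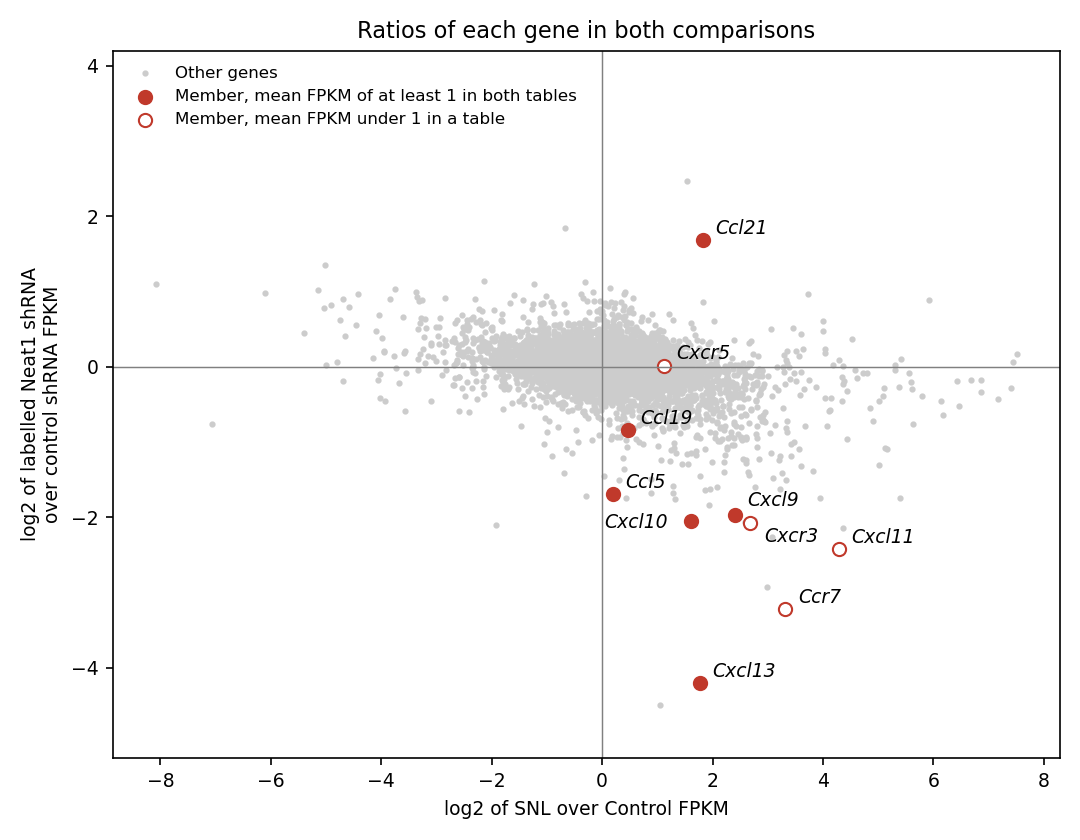
Log2 ratio of SNL over Control FPKM (x axis) against log2 ratio of the group labelled Neat1 shRNA over SNL+control shRNA FPKM (y axis) for 10426 genes with a mean of at least 1 FPKM in both tables (grey), with the members in red, open where a mean was under 1. Ccl21 lies above 0 on both axes at 1.83 and 1.68, Cxcl13 lies near the bottom at -4.20 on the y axis, and Ccl5 lies near 0 on the x axis (0.20) and low on the y axis (-1.70).

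The plot of both ratios shows how the members related to genes of similar pattern, which were taken as the 3 genes with the smallest distance in the 2 log2 ratios and of which some are given. The rule could be applied to the 6 members that passed the filter in both tables. Cxcl9 lay nearest to Cd3g, at a distance of 0.20, followed by Ptprcap, which codes for a partner of the leukocyte phosphatase CD45. Cxcl10 lay nearest to Serpinb6b and Gimap7, and Ccl5 to Gzmm and Gimap4, where Gzmm codes for a granzyme of cytotoxic lymphocytes and Gimap genes for GTPases of lymphocytes. Cxcl13 had no close neighbour, and its nearest gene was Ubd, at a distance of 0.78, which codes for the ubiquitin-like modifier FAT10. Ubd had 4.19 FPKM in the group labelled Neat1 shRNA and 94.4 FPKM in SNL+control shRNA, and 2.10 FPKM in SNL and 1.02 FPKM in Control. Ccl21 lay nearest to Pou3f1, a transcription factor of the Schwann cell lineage (0.83), and Sfrp2, a modulator of Wnt signals (0.84). Sfrp2 had 49.5 FPKM in the group labelled Neat1 shRNA and 8.94 FPKM in SNL+control shRNA. Of the 1928 genes called higher after SNL and measured in both tables, 10.1% were called lower between the shRNA groups and 0.674% higher, with Ccl21 among the 13 of the second kind.

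Lymphocyte markers stood lower in the group labelled Neat1 shRNA by factors near those of the CXCR3 set. Of 12 T cell markers 11 passed the filter, 10 were called lower and none higher, and their median log2 ratio was -1.84. Over all genes that passed, 3.59% were called lower. Of the T cell markers called lower, Cd5 and Cd8b were under 1 FPKM in the group labelled Neat1 shRNA. They passed only through SNL+control shRNA, which fixed their direction. Cd3e had 3.40 FPKM in the group labelled Neat1 shRNA and 13.4 FPKM in SNL+control shRNA, and Cd8a had 3.08 and 11.9 FPKM. The T cell list summed to 61.2 FPKM in the group labelled Neat1 shRNA and 135 FPKM in SNL+control shRNA, again with Cd4 as its largest part (37.8 and 55.2 FPKM). Of 8 NK and cytotoxic cell markers 6 passed and all 6 were lower, and the list summed to 13.1 and 36.9 FPKM. Among these 6, Klrd1, Gzmk and Prf1 likewise passed only through SNL+control shRNA. Of 9 B and plasma cell markers found, 4 passed and 3 were lower, among them Cd79b of the B cell receptor (0.271 and 2.22 FPKM), and the list summed to 3.28 and 13.8 FPKM. All 3 passed only through SNL+control shRNA, so the filter fixed their direction. Pax5, above 1 FPKM in both groups (1.11 and 1.39 FPKM), was within the limits. No marker of these 3 lists was listed at 0 in SNL+control shRNA, and Gzma was at 0 in the group labelled Neat1 shRNA. The log2 ratios of Cxcl13 (-4.20) and Ccr7 (-3.23) were below that of every T cell and NK marker that passed the filter, the lowest of which was Klrd1 at -2.43. Among the B and plasma cell markers that passed, the lowest was Cd79b at -3.03, near Ccr7. Tnfrsf17, a plasma cell marker under the filter (0.0202 and 0.605 FPKM), was at -4.91, below Cxcl13. The other cell types differed less. Of 8 dendritic cell markers 6 passed and 2 were called lower, the lectin Clec9a (1.59 FPKM in the group labelled Neat1 shRNA, 3.79 FPKM in SNL+control shRNA) and Cd83 (6.38 and 12.2 FPKM). Of 8 macrophage markers 1 was called lower, with a median log2 ratio of -0.27 and C1qb at 130 FPKM in the group labelled Neat1 shRNA and 153 FPKM in SNL+control shRNA. Of 8 sensory neuron markers and 8 markers of satellite glia and Schwann cells, none were past the limits. The part of these lymphocyte markers' cells in the members' values was not tested.

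**Figure D3:**
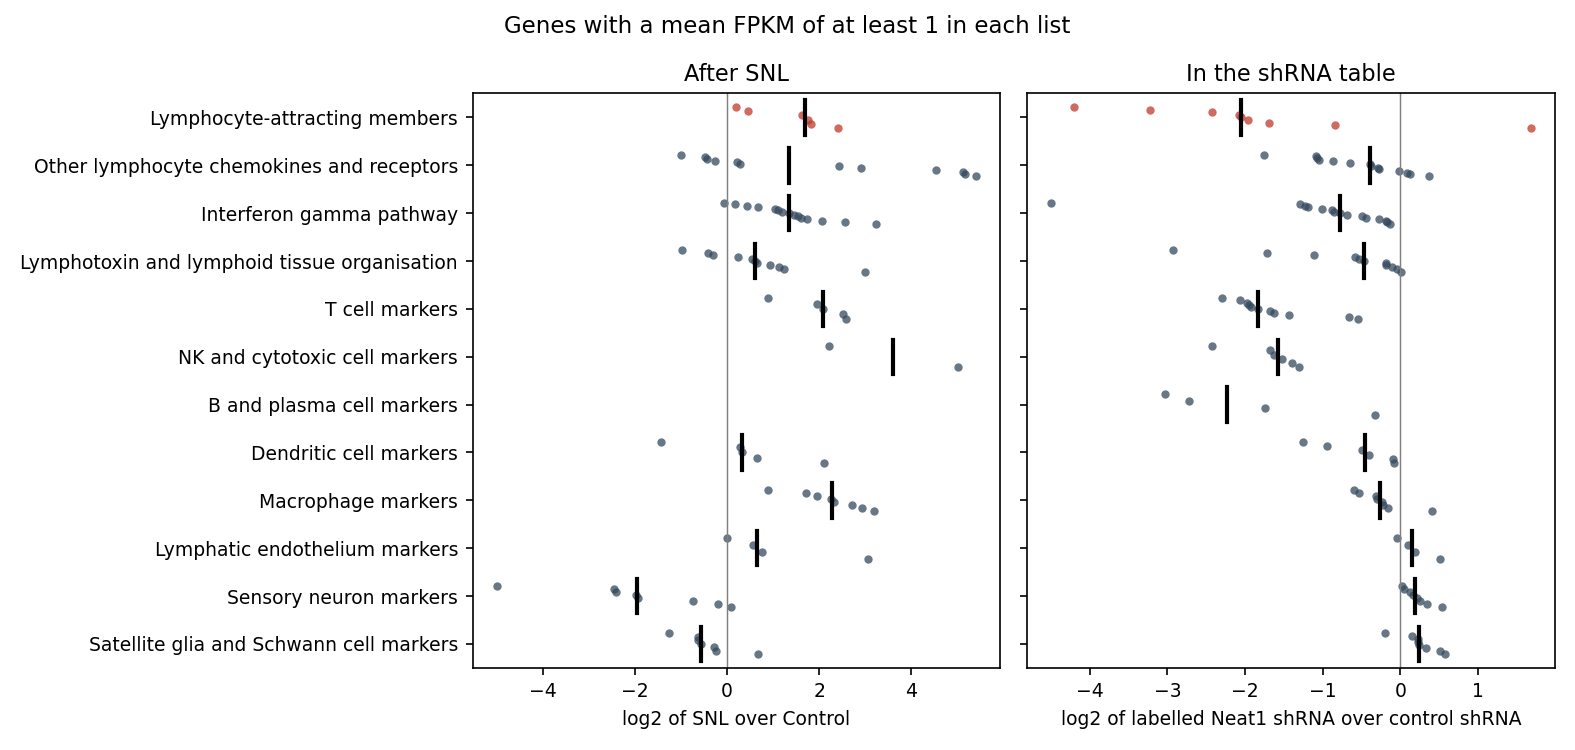
Log2 ratio of each gene with a mean of at least 1 FPKM, by list, for SNL over Control (left) and for the group labelled Neat1 shRNA over SNL+control shRNA (right), with the members in red and the median of each list as a black bar. On the right the T cell (median -1.84) and NK lists lie near most members, the macrophage list lies near 0 (median -0.27), and 1 member, Ccl21, stands at 1.68.

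Of the interferon gamma genes 9 of 15 were called lower in the group labelled Neat1 shRNA and none higher, with a median log2 ratio of -0.78. Over all genes that passed, 3.59% were called lower and 1.22% higher. Besides Ubd, the largest differences were in the immunoproteasome subunit Psmb9 (23.6 FPKM in the group labelled Neat1 shRNA, 57.9 FPKM in SNL+control shRNA), Irf8 (16.1 and 37.8 FPKM) and Ciita (3.99 and 9.06 FPKM). Ifng was under the filter, with 0.0357 FPKM in the group labelled Neat1 shRNA and 0.211 FPKM in SNL+control shRNA, a ratio of 0.169. The first of these values lies in the range of very few fragments. The receptor genes Ifngr1 and Ifngr2 and the kinases Jak1 and Jak2, named here after their values were seen, had log2 ratios between -0.27 and -0.14. Of the lymphotoxin and lymphoid tissue genes 4 of 11 were called lower and none higher. Among these 4, Tnf was under 1 FPKM in the group labelled Neat1 shRNA and passed only through SNL+control shRNA, which fixed its direction. Tnfrsf14 had 2.53 FPKM in the group labelled Neat1 shRNA and 19.3 FPKM in SNL+control shRNA, and lymphotoxin beta (Ltb), which with CXCL13 takes part in the building of lymphoid follicles, had 4.58 and 15.0 FPKM. Vcam1, an adhesion molecule for lymphocytes, had 4.78 and 7.203 FPKM.

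The levels of the 4 groups set side by side place the shRNA groups beside SNL. The tables were assembled and normalized apart and differ by the vector injection, so these levels carry that limit. Genes that passed the filter in both tables had a median log2 ratio of 0.12 for SNL+control shRNA over SNL. Against that, 9 of the 10 members were higher in SNL+control shRNA than in SNL, 8 of them by more than 2 times, as were 3.54% of the 10426 genes. Cxcl13 had 51.9 FPKM in SNL+control shRNA and 3.40 FPKM in SNL, 15.2 times as much, Ccr7 8.95 times, Cxcr3 8.94 times, Ccl5 8.12 times and Cxcl9 2.44 times. Ccl21 was 1.46 times as high, and Cxcr5 was the exception at 0.471 by its row with the higher mean. Its other row went the opposite way, with 0.791 FPKM in SNL+control shRNA and 0.334 FPKM in SNL, so no direction can be given for Cxcr5 here. The group labelled Neat1 shRNA was nearer to SNL for several members. Cxcl13 had 2.81 FPKM in that group and 3.40 FPKM in SNL, Cxcl10 6.02 and 6.09 FPKM, Ccr7 0.711 and 0.743 FPKM, and Cxcl11 1.002 and 0.717 FPKM, and these 4 were within 1.5 times. Ccl21 (4.68 times), Ccl5 (2.50 times), Ccl19 (2.14 times) and Cxcr3 (2.12 times) were over 2 times as high in the group labelled Neat1 shRNA as in SNL. The vector injection and the separate assembly both differ between the tables and cannot be told apart here.

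By level, Cxcl9 led the members in SNL, Control and SNL+control shRNA, and was second to Ccl21 in the group labelled Neat1 shRNA, with 20.7 FPKM against 25.8 FPKM. Cxcl13 held the second place in SNL+control shRNA with 51.9 FPKM. The receptors were the scarcest transcripts after SNL together with Cxcl11, and none of Cxcr3, Cxcr5 and Ccr7 exceeded 6.83 FPKM in any group. Without replicate values, no spread can be set beside this order.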

How the data were processed

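The deposited tables hold FPKM that the authors computed with 1 value per group over 3 libraries. The methods describe stranded libraries, paired reads of 75 bp, alignment to rn5 with RefSeq genes, and Cufflinks assembly and differential expression (app version 2.0), and the submitters' processing notes also name Cufflinks. The 2 tables (28578 and 28745 rows) were assembled apart. Their columns of log2 fold changes, test statistics, p-values, q-values and calls are the authors' own comparison and were not used.

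Ratios and log2 ratios were computed from the FPKM as deposited, for rows with 1 symbol, by the row with the highest mean FPKM where a symbol had several. Calls need a ratio above 1.5 or below 0.67 and a mean of at least 1 FPKM. List genes named are up to 4 past the limits with the largest log2 ratio, or the 2 most abundant where fewer than 2 passed; others are named as context and were chosen after their values were seen. The members and lists were chosen with earlier results of these data known. Neat1 was read from the unnamed row at the location the study gives.

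The code for ratios and calls was tested on simulated data, which says nothing of the spread between animals. Promoters came from RefSeq (GRCr8), and no coordinates were converted between builds. Some genes of the lists are not reported here. Alternatives changed the filter, fold limits, pseudocount, scaling and choice of row. Python 3.11.15, numpy 2.4.6, pandas 2.3.3 and matplotlib 3.10.9 were used.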

Additional observations from a re-analysis of the deposited data

How the results depend on the processing

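The files hold 1 value per group, so no paired analysis and no analysis without single libraries was possible, and depth is unknown. For single members, 79 settings kept the direction and the side of the limits. The exceptions were all in Cxcr5, whose log2 ratio between the shRNA groups turned to -0.54 with its rows summed and to -1.20 with its other row (a setting chosen after seeing the data), and was 0.53 after SNL with a pseudocount of 1 FPKM. After SNL, the count of members called higher was 8 without the filter, where 22.8% of all genes were called higher, and 1 with a mean of at least 5 FPKM, which only Cxcl9 passed. The median log2 ratio after SNL was 0.71 with a pseudocount of 1 FPKM and 2.41 with that stricter filter. Between the shRNA groups, 5 of the 6 members with a mean of at least 5 FPKM were called lower. Every other setting tried left the counts within 1.5 times and the medians in their direction.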

Other observations

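Chemokines and receptors outside the 10 members did not all share their pattern. In a list of 22 others, 12 of 20 found passed the filter after SNL, 6 of them called higher and 1 lower. Over all genes that passed, 18.3% were called higher and 16.2% lower. Except for Cx3cr1, those called higher were under 1 FPKM in Control and passed only through SNL, so the filter fixed their direction. Between the shRNA groups 14 of 21 found passed, 6 of them called lower and none higher, beside 3.59% and 1.22% of all genes that passed. The values of Cxcr4, Cxcl12 and Cxcl16 were chosen after they were seen. Ccl22 and Ccl17, ligands of CCR4 on regulatory and helper T cells, had 3.36 and 20.8 FPKM in SNL, against 0.0796 and 0.585 FPKM in Control. Both stood lower in the group labelled Neat1 shRNA, with Ccl22 at 2.54 FPKM and 8.55 FPKM in SNL+control shRNA, and Ccl17 at 14.4 FPKM and 30.7 FPKM in the same groups. Xcl1, a T and NK cell product that attracts cross-presenting dendritic cells, had 19.7 FPKM in SNL and 0.567 FPKM in Control. Its level was 3.23 FPKM in the group labelled Neat1 shRNA and 6.81 FPKM in SNL+control shRNA, so that across the separately normalized tables it stood below SNL in both shRNA groups, unlike 9 of the 10 members in SNL+control shRNA. Cxcl16 and its receptor Cxcr6 were also lower between the shRNA groups, with Cxcl16 at 40.3 FPKM in the group labelled Neat1 shRNA and 63.2 FPKM in SNL+control shRNA, and Cxcr6 at 1.34 and 2.77 FPKM in the same groups. Ccr6 was 23.1-fold higher after SNL, with 3.08 FPKM in SNL and 0.133 FPKM in Control, and had 4.37 FPKM in the group labelled Neat1 shRNA and 3.39 FPKM in SNL+control shRNA. Cxcr4 was lower in both comparisons, with 5.26 FPKM in SNL and 10.6 FPKM in Control, and 6.41 FPKM in the group labelled Neat1 shRNA and 11.7 FPKM in SNL+control shRNA. Its ligand Cxcl12 was within the limits in both, with 21.97 FPKM in SNL and 18.0 FPKM in Control, and 33.5 FPKM in the group labelled Neat1 shRNA and 33.8 FPKM in SNL+control shRNA.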
